A study of Mus musculus with 24 samples.

Results

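Transcripts of 10 genes that remodel extracellular matrix were followed in mouse liver. They were taken from the count table by gene symbol, and 10 of 10 were found among its 23972 genes. The genes are 3 tissue inhibitors of metalloproteinases (*Timp1*, *Timp2*, and *Timp3*), 4 matrix metalloproteinases (*Mmp2*, *Mmp12*, *Mmp13*, and *Mmp14*), and 3 lysyl oxidases (*Lox*, *Loxl1*, and *Loxl2*). Liver RNA-Seq was performed on 24 female mice that shared a floxed *Lmna* gene (*loxP* sites around exons 10 and 11), a diet with 60% fat, and housing at 22°C. Control mice lacked *Adipoq*-Cre, and LmnaADKO mice carried it, so that *Lmna* was deleted in adipocytes and the mice were lipodystrophic. Mice of both genotypes were 12 to 14 weeks old at the start of the experiments, ate the diet for 4 weeks before injection, and were killed 8 weeks after it. The groups were 7 vehicle-treated controls, 3 FGF21-treated controls, 6 vehicle-treated LmnaADKO mice, and 8 FGF21-treated LmnaADKO mice. FGF21 came from an AAV8 vector, whereas vehicle was buffer with no virus, so effects of the vector and of FGF21 cannot be told apart.

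Metalloproteinases are zinc-dependent enzymes that cut collagens, elastin, and other matrix proteins, and the Timp proteins block them by binding their active sites. MMP14 sits in the cell membrane and activates the MMP2 proenzyme, a step in which TIMP2 takes part. MMP12 is the macrophage elastase, and MMP13 is the main interstitial collagenase of rodents. Lysyl oxidases cross-link collagen and elastin fibres. In liver, fibroblasts derived from stellate cells and macrophages are known sources of these proteins, and TIMP1 is a widely used marker of liver fibrosis.

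RefSeq promoter windows on GRCm38.p6 were at hand for 6 of the 10 genes. The 250 bases before the annotated start are shown for 4 genes that were higher in vehicle-treated LmnaADKO livers, as sequence context for these transcripts. Capitals mark the AP-1 letters TGANTCA or the ETS letters AGGAAG, searched on both strands. The windows lie at chrX:20869916-20870165 for *Timp1*, chr10:86300162-86300411 for *Timp3*, chr9:7347124-7347373 for the second of 2 *Mmp12* start sites, and chr9:7272264-7272513 for *Mmp13*, all on the plus strand.
Timp1: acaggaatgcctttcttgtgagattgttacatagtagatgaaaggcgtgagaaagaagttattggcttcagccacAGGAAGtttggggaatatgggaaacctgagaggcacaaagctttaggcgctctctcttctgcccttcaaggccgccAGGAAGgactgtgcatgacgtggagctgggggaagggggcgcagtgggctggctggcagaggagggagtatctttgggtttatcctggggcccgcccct
Timp3: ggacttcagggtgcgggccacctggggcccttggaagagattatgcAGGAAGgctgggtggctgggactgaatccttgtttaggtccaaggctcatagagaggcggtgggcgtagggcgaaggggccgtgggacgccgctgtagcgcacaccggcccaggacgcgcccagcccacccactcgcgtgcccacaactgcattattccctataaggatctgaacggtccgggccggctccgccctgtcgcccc
Mmp12: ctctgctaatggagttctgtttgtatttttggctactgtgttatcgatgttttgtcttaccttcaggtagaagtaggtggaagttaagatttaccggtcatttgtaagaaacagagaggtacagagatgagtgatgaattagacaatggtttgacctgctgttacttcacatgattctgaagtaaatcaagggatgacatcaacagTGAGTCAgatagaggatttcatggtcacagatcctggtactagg
Mmp13: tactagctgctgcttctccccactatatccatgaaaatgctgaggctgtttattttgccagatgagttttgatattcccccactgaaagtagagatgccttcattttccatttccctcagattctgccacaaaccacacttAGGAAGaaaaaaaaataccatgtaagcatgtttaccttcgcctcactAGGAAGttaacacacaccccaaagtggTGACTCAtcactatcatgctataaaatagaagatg
An AP-1 match began 44 bases before the second *Mmp12* start and 35 bases before the *Mmp13* start, and 6.75% of 32851 mouse promoter windows of this length held one. The window of the first *Mmp12* start (chr9:7344147-7344396), which is not shown, held no AP-1 match. The second *Mmp12* window lies within the annotated gene. The ETS letters stood 2 times in the *Timp1* window, 2 times in that of *Mmp13*, and 1 time in that of *Timp3*, and 29.5% of all windows held them. They were also found in the *Mmp14* window and at the first *Mmp12* start, but not in the *Timp2* window. The TATA box letters TATAAA were found before *Mmp13* alone among the 6 genes, and in 12.4% of all windows. The Sp1 letters GGGCGG were found before *Timp1*, *Timp2*, *Timp3*, and *Mmp14*, and in 32.7% of all windows. These matches describe the letters and were not tested for binding.

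On the annotation of the same build, *Mmp12* (chromosome 9, 7344381 to 7369499) and *Mmp13* (chromosome 9, 7272514 to 7283331) are neighbours in a cluster of metalloproteinase genes. *Timp1* (chromosome X, 20870166 to 20874735) lies within *Syn1*, which runs on the opposite strand and shares 0 exonic bases with it. *Timp3* (chromosome 10, 86300372 to 86349506) overlaps *Syn3* on the opposite strand by 1733 exonic bases, and *Loxl2* (chromosome 14, 69609068 to 69695834) overlaps the antisense gene *Gm27177* by 301. *Mmp12* overlaps *Mmp1b* by 157 exonic bases. *Syn3* and *Gm27177* are in the count table, whereas *Mmp1b* is not, and genes without counts in any sample had been removed from it. The libraries were strand-specific, but whether strand was used in counting is not stated, so a share of these counts could come from the partner gene.

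Libraries held 19863304 to 21510054 counts on genes, and 3 counts, taken here as the floor, equalled 0.124 to 0.176 CPM, the count scaled to a common library size. Animal numbers had 3 digits in 6 of 7 vehicle-treated controls and 4 digits in 5 of 6 vehicle-treated LmnaADKO mice, so the number series and the genotype are nearly confounded there. All 3 FGF21-treated controls had 4 digits, so the series is nearly confounded with treatment in controls as well. Hepatocyte markers summed to at least 65400 CPM in every library. In 3 libraries, log2 CPM fell steeply with gene length (FGF21-treated LmnaADKO mouse 7, FGF21-treated control 3, and vehicle-treated control 3). *Lmna* is deleted in adipocytes and not in liver cells, so its liver transcript does not check the genotype. With vehicle, it was at 18.6 ± 2.47 CPM (SD, *n* = 7) in controls and 26.7 ± 2.57 (*n* = 6) in LmnaADKO mice. For the treated mice, the labels give only the word rescue, and the study's design names FGF21 for this experiment. *Fgf21* transcripts did not set these groups apart, at 4.01 ± 3.18 CPM with vehicle and 4.78 ± 2.29 with FGF21 in controls, and 7.99 ± 2.48 and 5.36 ± 2.41 in LmnaADKO mice.

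Levels per length differed widely within the gene set. In vehicle-treated controls, *Mmp14* was the most abundant transcript at 5.81 ± 1.17 CPM per kb of exon (SD, *n* = 7), followed by *Timp2* at 3.84 ± 0.164 and *Timp3* at 2.27 ± 0.38. These 3 did not overlap with each other or with the next gene across the 7 libraries. *Mmp2* (1.03 ± 0.273 CPM per kb), *Loxl2* (0.837 ± 0.219), and *Loxl1* (0.801 ± 0.406) formed a middle group whose ranges overlapped. *Mmp12* (0.365 ± 0.496 CPM per kb), *Timp1* (0.34 ± 0.327), *Mmp13* (0.107 ± 0.14), and *Lox* (0.0589 ± 0.0278) were lowest, and neighbours in this order overlapped. In vehicle-treated LmnaADKO livers, *Mmp14*, *Timp2*, and *Timp3* (5.42 ± 0.647, 4.56 ± 0.607, and 4.26 ± 0.793 CPM per kb, *n* = 6) overlapped with each other, and *Timp1* came next at 1.98 ± 0.914.

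**Figure D1:**
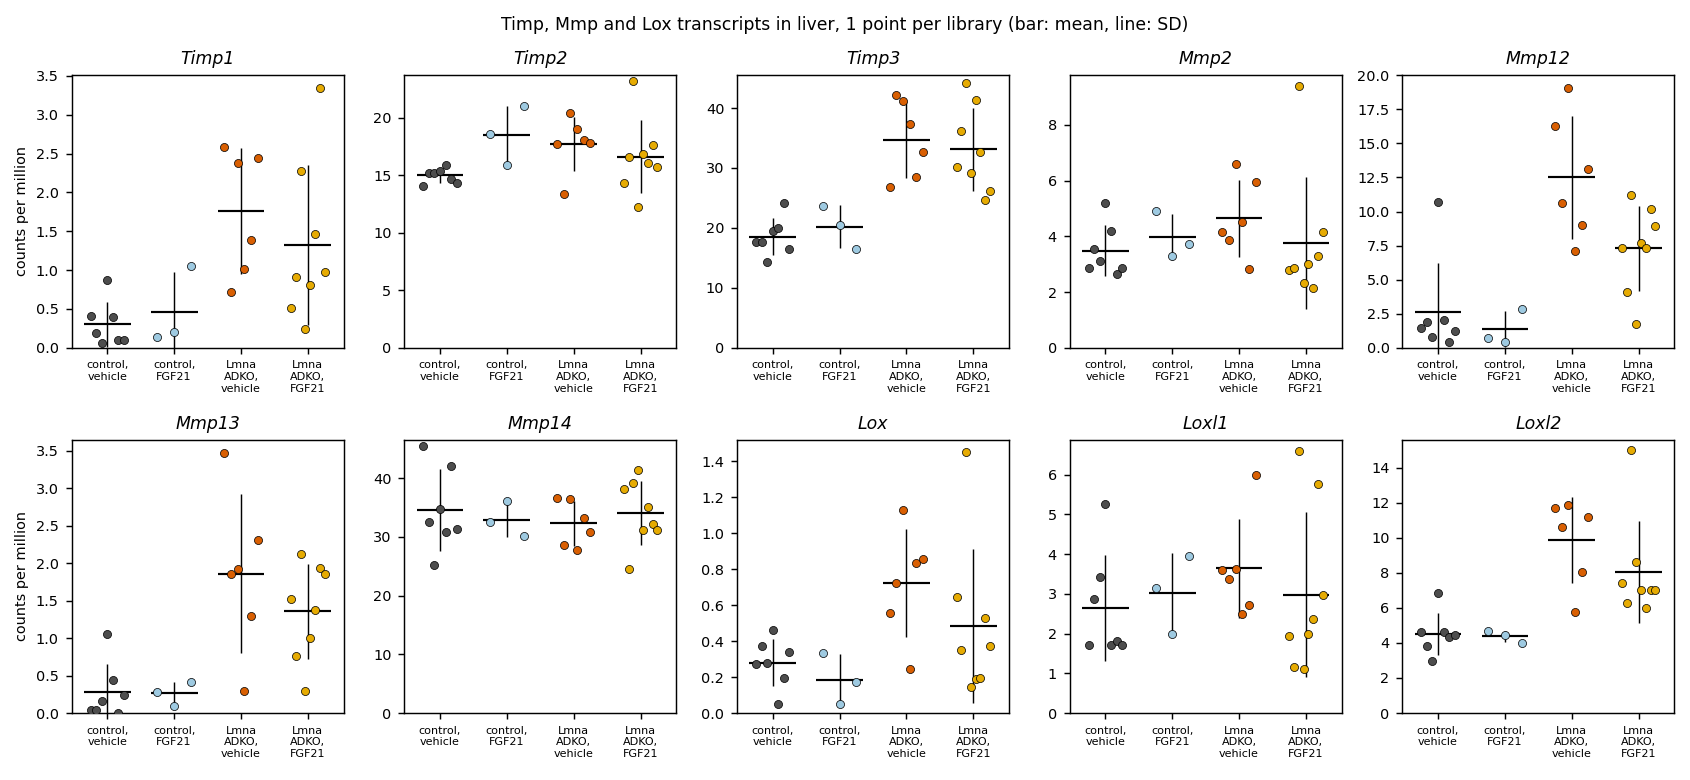
CPM of the 10 genes in each of 24 libraries, 1 panel per gene with its own linear axis from 0. Points are libraries, bars are group means, and vertical lines are SD. *Timp3* in the 6 vehicle-treated LmnaADKO livers (26.8 to 42.1 CPM) lies above all 7 vehicle-treated controls (14.3 to 24.1 CPM), whereas *Mmp14* overlaps in all groups.

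The comparison of genotypes under vehicle asks how lipodystrophy affects these transcripts in liver. Of the 10 genes, 6 were higher in LmnaADKO livers and 0 were lower, by edgeR's quasi-likelihood test with a Benjamini-Hochberg adjusted p under 0.05 over all genes and a fold change above 1.5. Over all 23972 genes, 5.12% were called higher and 3.36% lower, together 8.48%. The expression filter filterByExpr kept 14699 genes, among them all 10. After it, 1991 genes were called in either direction, and 6 of the 10. Shares over all genes in this text include the genes that this filter drops. The 10 genes were chosen with earlier results of these data known. The 6 were the inhibitors *Timp1* and *Timp3*, the metalloproteinases *Mmp12* and *Mmp13*, and the lysyl oxidases *Lox* and *Loxl2*. The median log2 fold change of the 10 genes was 1.01, beside 0.0 over all genes. In bulk liver, more cells of a type and more RNA per cell cannot be told apart.

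Among the inhibitors, *Timp3* encodes the family member that binds to matrix. Its lowest, median, and highest values were 14.3, 17.7, and 24.1 CPM in controls and 26.8, 34.9, and 42.1 CPM in LmnaADKO livers, so the groups did not overlap. It rose 1.87-fold (95% interval 1.53 to 2.3), with a log2 fold change of 0.91 ± 0.141 (SE) and an adjusted p of 4.36e-05 by edgeR. *Timp3* was 1 of the 10 genes with every LmnaADKO library above every control, a pattern that 4.22% of all genes showed. *Timp1* was far less abundant, at 0.0553, 0.187, and 0.875 CPM (lowest, median, highest) in controls and 0.721, 1.88, and 2.59 CPM in LmnaADKO livers. Only the highest control exceeded the lowest LmnaADKO library, and 3 of 7 controls were at or under the floor. *Timp1* rose 5.64-fold (2.42 to 13.1, adjusted p = 0.00457, edgeR). *Timp2* ranged from 14.1 to 15.9 CPM in controls and from 13.4 to 20.4 CPM in LmnaADKO livers, where 5 of 6 libraries lay above all controls and the sixth below all of them. Its fold change of 1.19 (1.01 to 1.4) did not pass the threshold (adjusted p = 0.158, edgeR).

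Among the metalloproteinases, the increase lay in *Mmp12* and *Mmp13*. *Mmp12* was 0.438, 1.45, and 10.7 CPM (lowest, median, highest) in controls and 7.11, 11.9, and 19.1 CPM in LmnaADKO livers. It rose 4.7-fold (2.07 to 10.6, adjusted p = 0.00963, edgeR). The groups overlapped through 1 control, mouse 4 at 10.7 CPM, as the others were at most 2.06 CPM. Without that control, *Mmp12* was 9.51-fold higher, and *Mmp13* 11.6-fold higher. *Mmp13* was 0, 0.166, and 1.06 CPM in controls, 4 of which were at or under the floor, and 0.292, 1.88, and 3.47 CPM in LmnaADKO livers. With all controls it rose 6.33-fold (2.67 to 15.0, adjusted p = 0.00324, edgeR). *Mmp14*, the most abundant of the 10, was 25.3, 32.6, and 45.5 CPM in controls and 27.8, 32.0, and 36.7 CPM in LmnaADKO livers, with a fold change of 0.932 (0.779 to 1.11, adjusted p = 0.65, edgeR). *Mmp2*, a gelatinase, was 2.63, 3.1, and 5.2 CPM in controls and 2.82, 4.35, and 6.6 CPM in LmnaADKO livers, with a fold change of 1.34 (0.896 to 1.99, adjusted p = 0.35, edgeR).

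The lysyl oxidases differed among themselves as well. *Loxl2* was 2.98, 4.43, and 6.86 CPM (lowest, median, highest) in controls and 5.75, 10.9, and 11.9 CPM in LmnaADKO livers, where 5 of 6 libraries exceeded all controls. It rose 2.18-fold (1.63 to 2.9), with a log2 fold change of 1.12 ± 0.199 (SE) and an adjusted p of 0.000248 by edgeR. *Lox* was scarce, at 0.0492, 0.276, and 0.46 CPM in controls, which is 1 to 10 counts, and 0.243, 0.777, and 1.13 CPM in LmnaADKO livers, which is 5 to 27 counts. Its 2.54-fold increase (1.3 to 4.95) was close to the threshold (adjusted p = 0.0471, edgeR). The call was lost under 13 of 20 alternatives, with an adjusted p of up to 0.126, although the log2 fold change stayed between 1.16 and 1.63. *Loxl1* was 1.71, 1.8, and 5.25 CPM in controls and 2.48, 3.5, and 5.98 CPM in LmnaADKO livers, and its fold change of 1.38 (0.797 to 2.39) did not pass the threshold (adjusted p = 0.466, edgeR). *Timp1*, *Timp3*, *Mmp12*, *Mmp13*, and *Loxl2* passed under all 20 alternatives. With the number series as a covariate, 5 of the 10 genes were called.

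**Figure D2:**
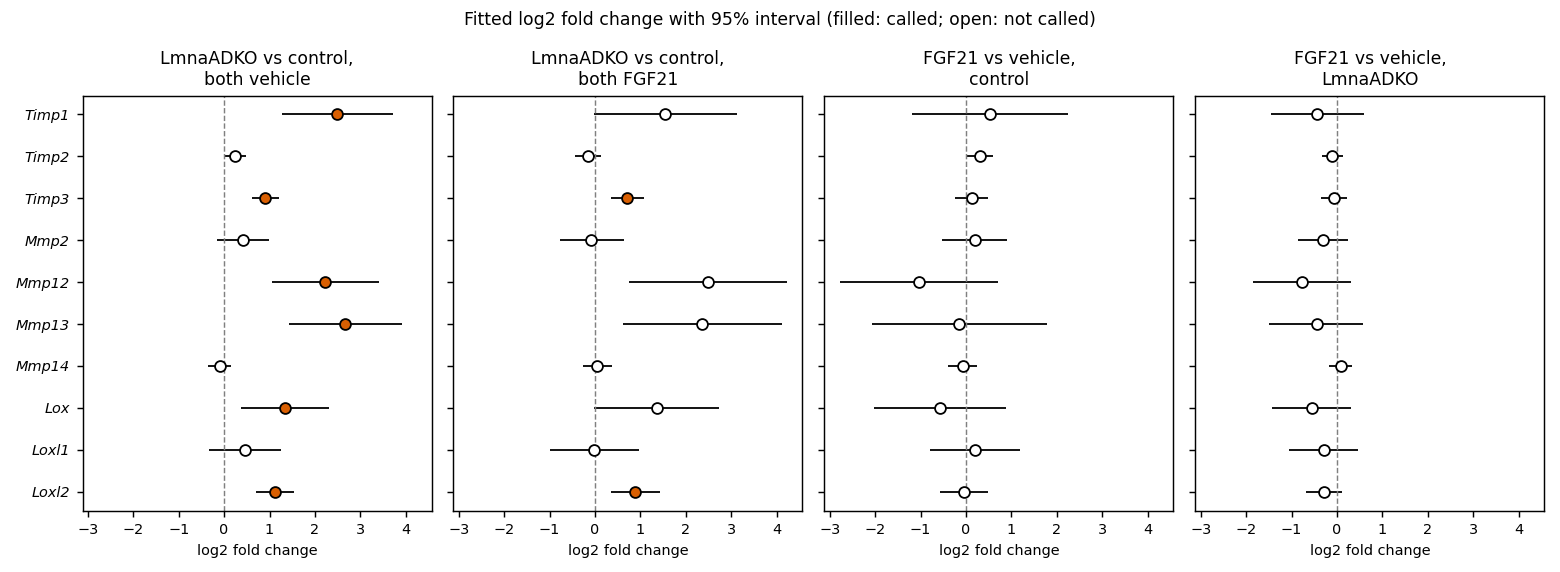
Log2 fold changes of the 10 genes fitted by edgeR in 4 comparisons, with 95% intervals. Filled points were called (adjusted p under 0.05 and fold change above 1.5). With vehicle, 6 genes are called higher in LmnaADKO livers, with FGF21 2 are, and neither comparison of FGF21 with vehicle has a called gene.

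Within the 3 *Timp* genes and within the 4 metalloproteinases of the set, the make-up of the transcripts differed between genotypes. *Timp1* made up 5.02% ± 4.44 (SD, *n* = 7) of the summed *Timp* level per kb in vehicle-treated controls and 17.9% ± 7.38 (*n* = 6) in LmnaADKO livers, and *Timp2* went from 59.9% ± 4.96 to 42.3% ± 4.14. *Mmp12* made up 4.52% ± 5.16 of the 4 metalloproteinases in controls and 18.3% ± 3.36 in LmnaADKO livers. Its share was 15.9% in vehicle-treated control 4 and 0.766% to 4.15% in the other 6 controls. *Mmp14* made up 79.7% ± 8.77 and 59.5% ± 6.25. The summed level of the 3 *Timp* genes was 6.46 ± 0.607 CPM per kb in controls and 10.8 ± 1.27 in LmnaADKO livers, without overlap (highest control 7.31, lowest LmnaADKO 9.42). The sum of the 4 metalloproteinases was 7.32 ± 1.38 and 9.22 ± 1.73 CPM per kb, and its ranges overlapped (5.33 to 9.25 and 7.1 to 11.4). Other metalloproteinases are left out of these sums, so the shares hold within the 4 genes only. *Mmp19* was at 21.9 ± 4.08 CPM per kb in controls and 19.2 ± 2.02 in LmnaADKO livers, above *Mmp14* in both. *Mmp15* was at 6.13 ± 0.805 and 7.47 ± 1.52 CPM per kb. These sums and shares are a description and were not tested.

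**Figure D3:**
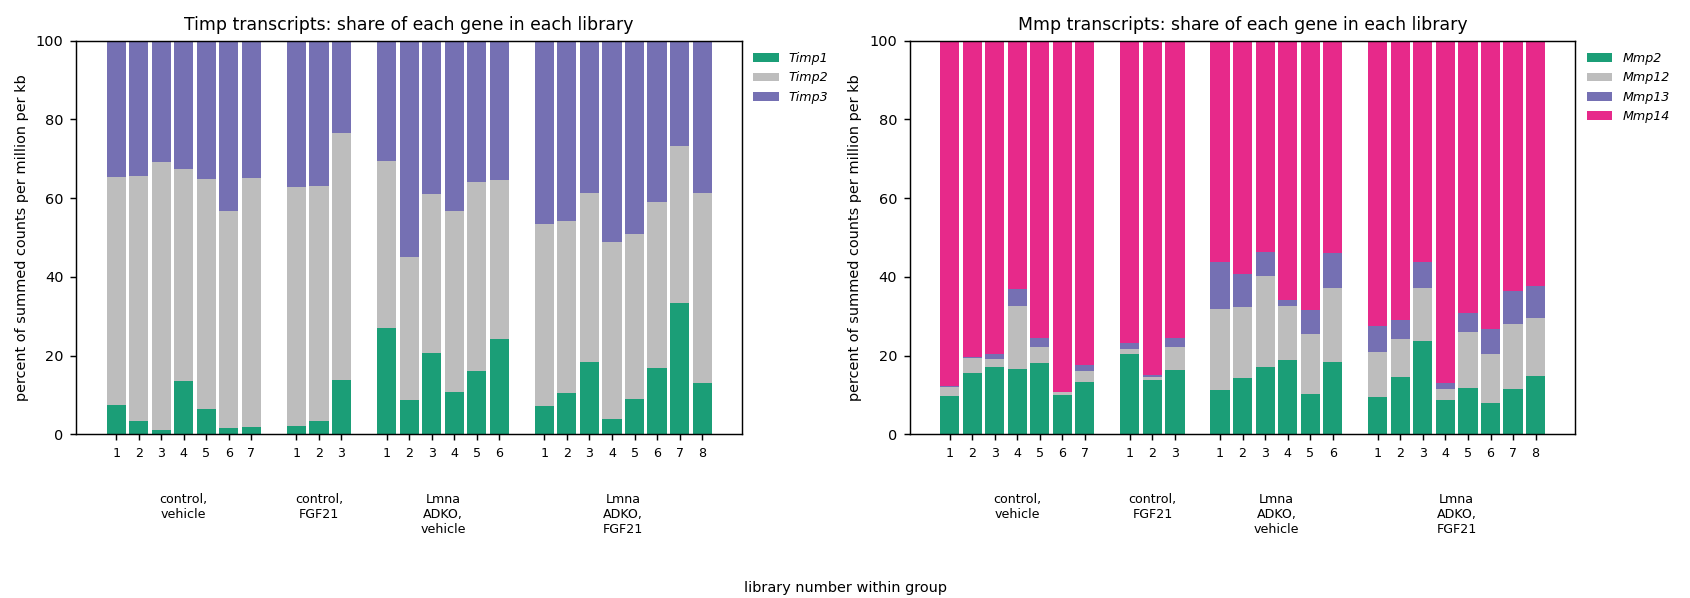
Share of each gene in the summed level per kb of exon (percent) of the 3 *Timp* genes and of the 4 *Mmp* genes, 1 stacked bar per library, grouped by genotype and treatment. *Timp1* takes 1.09% to 13.5% in vehicle-treated controls and 8.62% to 27.1% in vehicle-treated LmnaADKO livers.

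Some markers of several cell types, among them known sources of these proteins, were called between genotypes with vehicle. Over all genes, 8.48% were called in either direction. Of 7 myofibroblast markers, 6 were called higher in vehicle-treated LmnaADKO livers (*Acta2*, *Tagln*, *Col1a2*, *Col3a1*, *Lum*, and *Postn*), and the 7 summed to 66.7 to 171 CPM in controls and 132 to 282 CPM in LmnaADKO livers. Of 7 markers of lipid-associated macrophages, 4 were called higher (*Gpnmb*, *Cd9*, *Spp1*, and *Itgax*), and the 7 summed to 59.6 to 118 and 145 to 299 CPM. None of the 14 markers was at 0 across a group. Of 8 stellate cell markers, 1 was called higher (*Lrat*), with sums of 239 to 310 and 295 to 379 CPM. The median log2 fold change of the 8 was 0.03. Of 6 Kupffer cell markers, 0 were called, with sums of 511 to 728 and 319 to 602 CPM. Their median log2 fold change was -0.46. Of 6 markers of mesothelium and portal fibroblasts, 2 were called higher (*Gpm6a* and *Fbln2*), with sums of 7.6 to 14 and 11 to 18.2 CPM. Of 6 endothelial markers, 1 was called higher (*Lyve1*), with sums of 217 to 273 and 207 to 262 CPM. The median log2 fold change of the 6 was -0.05. Of 5 adipocyte markers, *Cidec* alone was called higher, the list summed to 1.27 to 6.81 and 67.4 to 160 CPM, and *Lep* was at 0 in both groups. The median log2 fold change of the 5 was -0.94, so the higher sum does not stand for the list as a whole. Of 5 hepatocyte markers, 2 were called lower (*Cps1* and *Serpina1c*), with sums of 76100 to 134000 and 66200 to 101000 CPM. Their median log2 fold change was -0.36. Among 6 neutrophil, 5 cholangiocyte, and 6 lymphocyte markers, 0 were called, with median log2 fold changes of 0.42, 0.71, and -0.52. The part of these cell types in the results for *Timp1*, *Mmp12*, and the others was not tested.

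With FGF21 in both genotypes, *Timp3* and *Loxl2* were called higher in LmnaADKO livers and 0 of the 10 genes lower, where 1.61% of all genes were called higher and 2.88% in either direction. *Timp3* was 16.4, 20.5, and 23.6 CPM in the 3 controls and 24.7, 31.4, and 44.1 CPM (lowest, median, highest) in the 8 LmnaADKO livers. The groups did not overlap, as for 2.98% of all genes in this direction, and the fold change was 1.64 (1.26 to 2.12, adjusted p = 0.0198, edgeR). *Loxl2* was 4.02, 4.44, and 4.66 CPM in controls and 6.0, 7.05, and 15.0 CPM in LmnaADKO livers, again without overlap, with a fold change of 1.84 (1.27 to 2.67, adjusted p = 0.0497, edgeR). Both calls rest on 3 controls, and neither passed without control 2 or without control 3. The *Timp3* call was lost under 6 of 19 alternatives (log2 fold change 0.58 to 0.84) and the *Loxl2* call under 13 of 19 (0.62 to 0.93), among them each control or 1 of 5 single LmnaADKO livers left out.

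*Mmp12* was 0.449, 0.713, and 2.85 CPM in FGF21-treated controls and 1.74, 7.52, and 11.2 CPM (lowest, median, highest) in FGF21-treated LmnaADKO livers, of which 7 of 8 lay above all controls. Its fold change was 5.61 (1.68 to 18.7), which edgeR did not call (adjusted p = 0.104) and DESeq2 did (adjusted p = 0.0123). It was also called among animals with 4-digit numbers alone (log2 fold change 2.69, adjusted p = 0.0207, edgeR), and was 12.4-fold without control 3 (adjusted p = 0.109). *Mmp13* was 0.0999, 0.285, and 0.408 CPM in controls and 0.29, 1.45, and 2.12 CPM in LmnaADKO livers, with a fold change of 5.13 (1.53 to 17.2, adjusted p = 0.123 by edgeR and 0.0266 by DESeq2). *Timp1* had a fold change of 2.91 (0.978 to 8.67, adjusted p = 0.302, edgeR), which was 7.41 without control 3 alone (adjusted p = 0.17). *Lox* had a fold change of 2.57 (0.989 to 6.68, adjusted p = 0.291, edgeR), and 4.35 without control 1 (adjusted p = 0.176). *Timp2*, *Mmp2*, *Mmp14*, and *Loxl1* had fold changes between 0.895 and 1.04.

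The comparisons of FGF21 with vehicle ask whether the treatment moved these transcripts within a genotype. In LmnaADKO livers, 0 of the 10 genes were called by edgeR, as were 0.0% of all genes, and 0 of the 10 had an unadjusted p under 0.05, beside 6.71% of all genes. DESeq2 called 0 of the 10 and 15 of all genes. Without FGF21-treated LmnaADKO mouse 3, edgeR called 0 of the 10 and 61 of all genes. The log2 fold changes were below 0 for 9 of the 10 genes, with a median of -0.3. The largest was that of *Mmp12*, from 12.5 ± 4.52 CPM (*n* = 6) with vehicle to 7.31 ± 3.11 (*n* = 8) with FGF21, a fold change of 0.583 (0.277 to 1.23, adjusted p = 0.753, edgeR). All 8 FGF21-treated libraries lay below the vehicle median of 11.9 CPM, and the ranges of 7.11 to 19.1 and 1.74 to 11.2 CPM overlapped. *Loxl2* was 9.87 ± 2.45 CPM with vehicle and 8.05 ± 2.9 with FGF21, and 6 of the 8 treated libraries were between 6.0 and 7.4 CPM. Its fold change was 0.817 (0.622 to 1.07, adjusted p = 0.735, edgeR). *Timp3* was 34.7 ± 6.46 and 33.1 ± 6.96 CPM, with a fold change of 0.953 (0.783 to 1.16, adjusted p = 0.939, edgeR). *Timp1* (0.743-fold, 0.365 to 1.51), *Mmp13* (0.731-fold, 0.357 to 1.49), and *Lox* (0.68-fold, 0.37 to 1.25) had wide intervals.

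In controls, 0 of the 10 genes were called with FGF21 by edgeR, beside 0.0542% of all genes, and DESeq2 called 0 of the 10 and 38 of all genes. Treatment and the number series are nearly confounded in controls. With the series as a covariate, edgeR called 0 of all genes, against 13 without it. *Timp2* was the single gene of the 10 with an unadjusted p under 0.05, beside 6.16% of all genes. It was 15.9, 18.6, and 21 CPM in the 3 FGF21-treated controls, each above the highest of the 7 vehicle-treated controls, which is also 15.9 CPM when rounded. Its fold change of 1.24 (1.01 to 1.51) had an adjusted p of 0.771 by edgeR, and 0.997% of all genes had every FGF21-treated library above every vehicle-treated one. *Mmp12* had a fold change of 0.488 (0.146 to 1.63, adjusted p = 0.797, edgeR), which was 0.993 without vehicle-treated control 4 and 0.221 without FGF21-treated control 3. *Timp1* went from 1.44-fold to 0.563-fold when FGF21-treated control 3 was left out, so no direction holds for it.

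The interaction of genotype and treatment, which tests whether the effect of FGF21 differed between genotypes, was called for 0 of the 10 genes and 0.00417% of all genes by edgeR. The smallest adjusted p among the 10 was 0.984, for *Timp2*, with a log2 interaction of -0.4 (-0.78 to -0.03) and an unadjusted p of 0.0303. It was 1 of the 10 with an unadjusted p under 0.05, as were 4.86% of all genes. The interaction includes the comparison in controls, where treatment and the number series are nearly confounded. FGF21-treated LmnaADKO livers were also compared with vehicle-treated controls, the control group that the genotype comparison with vehicle shares. In this comparison 4 of the 10 genes were called higher and 0 lower, where 3.04% of all genes were called higher. These were *Timp3* (1.79-fold, adjusted p = 0.000115, edgeR), *Loxl2* (1.78-fold, 0.00455), *Mmp13* (4.62-fold, 0.0163), and *Timp1* (4.19-fold, 0.0214). The calls of *Mmp13* (adjusted p = 0.0629, edgeR) and *Timp1* (0.058) were lost without the 3 libraries with the steepest length slopes, and *Mmp13* was 8.46-fold higher without vehicle-treated control 4. *Mmp12* (2.74-fold, adjusted p = 0.102, edgeR) was called by edgeR without vehicle-treated control 4 (5.54-fold, adjusted p = 0.000896). DESeq2 called it with all libraries (log2 fold change 1.46, adjusted p = 0.0402). *Lox* was at 1.73-fold (adjusted p = 0.312, edgeR). The markers of lipid-associated macrophages had a median sum of 132 CPM in FGF21-treated LmnaADKO livers, beside 200.0 CPM with vehicle, and those of myofibroblasts 136 CPM, beside 207 CPM. Mouse 3 was highest in both (329 and 336 CPM), and the next livers were at 171 and 212 CPM. The part of these cell types in the results with FGF21 was not tested.

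Within groups, single livers ran high or low in several of the genes at once. Vehicle-treated control 4 was the highest of 7 in 7 of the 10 genes, and FGF21-treated LmnaADKO mouse 3 the highest of 8 in 8. Vehicle-treated LmnaADKO mouse 4 was the lowest of 6 in 6 genes, and FGF21-treated LmnaADKO mouse 4 the lowest of 8 in 6. For 3 of these livers the marker sums were also the highest or lowest of the group. Myofibroblast markers summed to 171 CPM in vehicle-treated control 4 (the highest of its group) and to 336 CPM in FGF21-treated LmnaADKO mouse 3, and lipid-associated macrophage markers to 118 and 329 CPM. In vehicle-treated LmnaADKO mouse 4 the sums were 132 and 145 CPM, the lowest of that group. In FGF21-treated LmnaADKO mouse 4 the myofibroblast sum of 105 CPM was the lowest of 8, whereas the macrophage sum of 118 CPM was not. The part of these cell types in the high or low values was not tested.

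**Figure D4:**
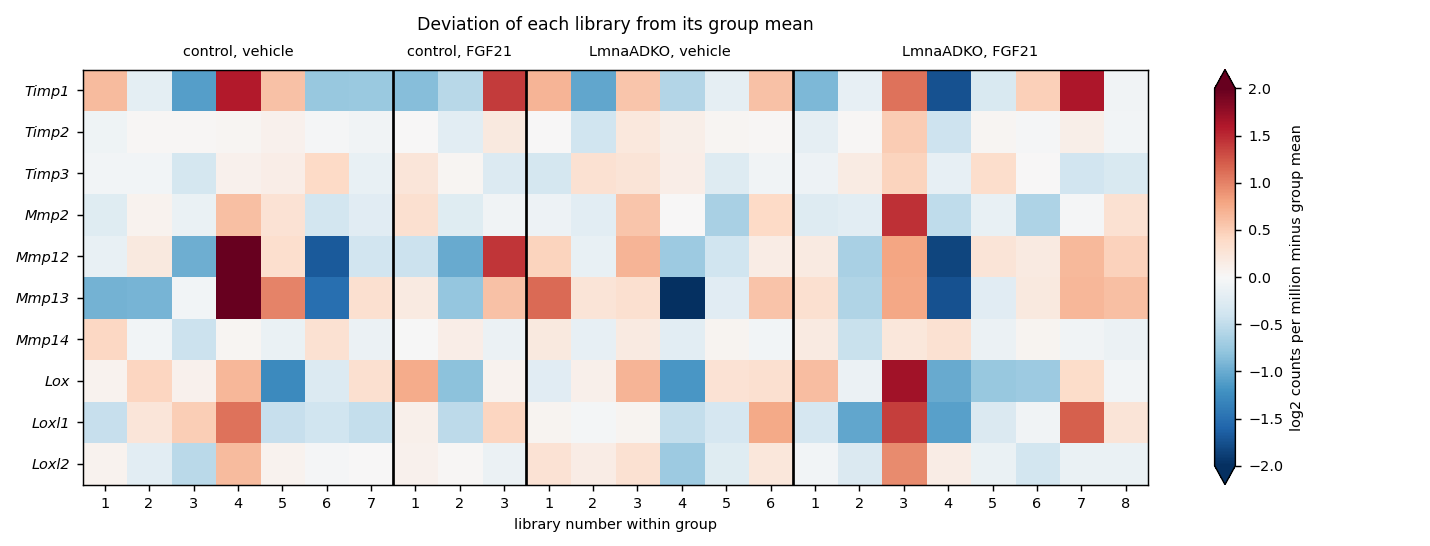
Log2 CPM of each gene in each of 24 libraries minus the mean of its group. Red is above and blue below the group mean, the scale is clipped at 2 in both directions, and vertical lines part the groups. Control 4 with vehicle and LmnaADKO mouse 3 with FGF21 are red in most genes, and *Timp2*, *Timp3*, and *Mmp14* vary least.

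Deviations from group means were correlated over the 24 libraries, which share depth scaling and any difference in cell make-up, as a description without a test. Across the 45 pairs of the 10 genes, Pearson's *r* ran from -0.158 to 0.811 with a median of 0.435, and 37 were above 0. The closest pairs were *Timp1* with *Mmp12* (*r* = 0.811, Spearman's rho = 0.79) and *Mmp12* with *Mmp13* (0.806 and 0.778). Every pair below 0 held *Timp3* or *Mmp14*. Pairs of *Timp3* reached at most 0.36, with *Mmp2*, whereas *Mmp14* with *Loxl2* was at 0.519 (rho 0.521). Among the 12491 genes whose mean log2 CPM was not below 0, the 3 closest to *Loxl1* were *Bgn* (0.895), *Col1a1* (0.892), and *Islr* (0.876), of which *Col1a1* encodes a chain of type I collagen and *Bgn* a small matrix proteoglycan. The closest to *Mmp12* were *Ubd* (0.875), *Mlkl* (0.848), and *Blnk* (0.843). *Loxl2* was closest to *Sox4* (0.876), *Plk2* (0.863), and *Frzb* (0.844), with Spearman's rho of 0.713, 0.828, and 0.686. *Mmp2* was closest to *Itga8* (0.861), *Vsig10* (0.855), and the collagen receptor gene *Ddr1* (0.848), with rho of 0.613, 0.75, and 0.701. FGF21-treated LmnaADKO mouse 3 was far above its group in *Loxl2* and *Mmp2*, and *r* was not computed without it. *Timp2* was closest to *Smoc2* (0.845), *Adamtsl2* (0.786), and the secreted protease gene *Htra1* (0.773), with rho of 0.779, 0.603, and 0.597. For the correlates of *Loxl1*, *Mmp12*, *Timp3*, and *Mmp14*, rho was between 0.729 and 0.858. *Timp3* was closest to *Ivns1abp* (0.822), *Atr* (0.807), and *Gm14403* (0.79), and *Mmp14* to *Tpm3* (0.833), *Pik3r5* (0.806), and *Nup160* (0.78). *Timp1*, *Mmp13*, and *Lox* were too low for this ranking.

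The 10 genes belong to a larger system of proteases, inhibitors, and matrix proteins, for which 68 other genes and 10 matrix substrates were listed. Of the 68, 64 had counts, and with vehicle 11 of these were called higher in LmnaADKO livers and 2 lower. Over all genes, 5.12% were called higher and 3.36% lower. These shares also stand beside the counts by role and of the substrates below. The counts of 2 in 21 ADAM and ADAMTS genes and 1 in 14 cross-linking and processing genes are near them. Among 5 other inhibitors, 1 was called higher and 1 lower. The broad protease inhibitor gene *A2m* rose 3.95-fold from a low level (0.145 ± 0.0519 to 0.589 ± 0.398 CPM, adjusted p = 0.00433, edgeR). It was at or under the floor in 5 of 7 controls. *Pzp*, the most abundant of the 5, went the other way, from 4110 ± 684 to 3090 ± 286 CPM. Its fold change of 0.753 (0.628 to 0.903, adjusted p = 0.0254, edgeR) did not reach the fold threshold. *Reck*, which encodes a membrane-anchored inhibitor of metalloproteinases, fell 1.58-fold (2.69 ± 0.487 to 1.7 ± 0.358 CPM, adjusted p = 0.0208, edgeR).

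Of 15 other metalloproteinases with counts, 3 were called higher and 0 lower. *Mmp7*, the matrilysin gene, rose 5.46-fold (0.168 ± 0.13 to 0.932 ± 0.572 CPM, adjusted p = 0.0315, edgeR), and *Mmp28* rose 2.12-fold (0.217 ± 0.121 to 0.465 ± 0.132 CPM, adjusted p = 0.0459). Of the 7 controls, 5 were at or under the floor for *Mmp7* (0 to 7 counts) and 2 for *Mmp28*, so these folds are imprecise. *Mmp24* had 0 counts in all 7 controls and 1 to 15 counts in the 6 LmnaADKO livers (adjusted p = 0.000427, edgeR), 4 of which were at or under the floor, so no fold is given. In the cluster on chromosome 9, *Mmp3*, *Mmp8*, and *Mmp27* were not called, with means of 0.1, 0.193, and 0.98 CPM in vehicle-treated controls and 0.202, 0.346, and 1.35 CPM in LmnaADKO livers. *Mmp10* held 2 counts in all libraries together. Of 21 ADAM and ADAMTS genes, *Adamts4* (2.74-fold, adjusted p = 0.00539, edgeR) and *Adamts12* (2.78-fold, 0.0107) rose and 0 fell. Both encode secreted proteases of matrix proteins.

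The plasminogen system differed between its precursor and its activators. *Plg*, which encodes plasminogen and is made by hepatocytes, fell 1.85-fold, from 3140 ± 253 CPM in controls to 1690 ± 281 in LmnaADKO livers (adjusted p = 3.36e-05, edgeR). The activator genes *Plat* (4.34-fold, adjusted p = 0.0022, edgeR) and *Plau* (1.61-fold, 0.0148) and the urokinase receptor gene *Plaur* (2.16-fold, 0.00329) rose. *Ctsk*, which encodes the collagen-degrading protease cathepsin K, was also called among these 9 and is named outside the rule, after its values were seen (1.8-fold, adjusted p = 0.0271, edgeR). Of 14 genes of cross-linking and collagen processing, only *Tgm2*, the tissue transglutaminase gene, was called (194 ± 28.1 to 300 ± 45.9 CPM, 1.55-fold, adjusted p = 0.00146, edgeR).

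Of 10 matrix substrates, 4 were called higher and 0 lower with vehicle. The basement membrane collagen genes *Col4a1* (32.6 ± 6.12 to 73.6 ± 15.2 CPM, 2.26-fold, adjusted p = 2.78e-05, edgeR) and *Col4a2* (20.1 ± 3.14 to 41.1 ± 5.37 CPM, 2.05-fold, 2.86e-05) did not overlap between the groups. The fibrillar collagen genes *Col1a2* (2.14-fold, 0.0206) and *Col3a1* (2.11-fold, 0.0452) overlapped. Both are also counted among the myofibroblast markers above. With FGF21, *Col4a1* (2.01-fold, adjusted p = 0.00879, edgeR) and *Col4a2* (1.94-fold, 0.00507) were called between genotypes, where 1.61% of all genes were called higher. *A2m* was the 1 called gene among the others, at 0 or 1 counts in the 3 FGF21-treated controls and 4 to 26 counts in the 8 LmnaADKO livers (adjusted p = 0.0117, edgeR). FGF21 against vehicle called 0 of the 64 genes and 0 of the 10 substrates in either genotype by edgeR.

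**Figure D5:**
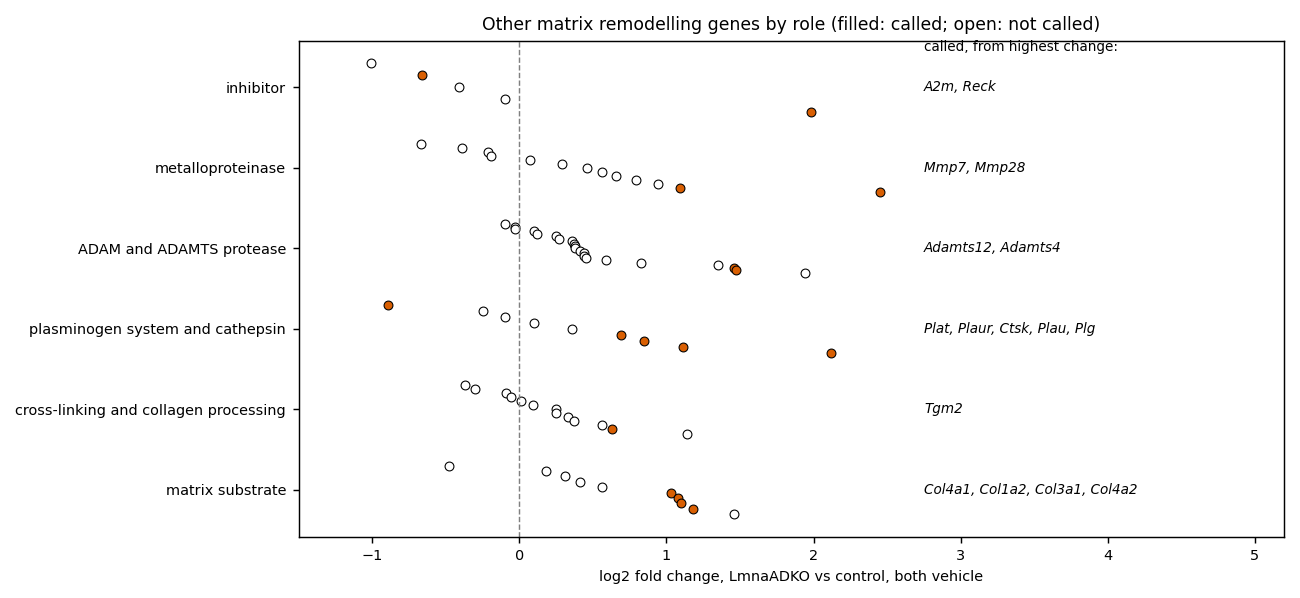
Log2 fold changes (edgeR, vehicle-treated LmnaADKO against vehicle-treated control) of the other listed remodelling genes and of the 10 matrix substrates, 1 point per gene by role. Filled points were called and are named at the right from the highest change to the lowest. Genes with 0 counts in all controls, such as *Mmp24*, are not drawn, and *Plg* and *Reck* are the only filled points below 0.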

How the data were processed

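Polyadenylated liver RNA of 24 female mice was sequenced as strand-specific libraries. The authors deposited whole-number counts per gene without normalization, after removing genes at 0 in all samples and with annotation of Ensembl 102. The submitters' processing notes name cutadapt 4.8, FastQC 0.11.8, STAR 2.7.8a, RSEM 1.3.3, and GRCm38, and if RSEM made the counts, they are rounded estimates. The notes and methods do not say whether counting used strand. Groups were taken from the labels, 0 columns lacked a sample, and libraries were numbered within groups by animal number. Each animal gave 1 library.

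A single model of the 4 groups without covariates was fitted to 23972 genes in edgeR 4.0.16 under R 4.3.3, with TMM factors, estimateDisp, robust glmQLFit, and glmQLFTest. The Benjamini-Hochberg adjustment covered every gene, and calls (adjusted p under 0.05) also needed a fold change above 1.5. Standard errors are the log2 fold change over the square root of F, and 95% intervals use 20 degrees of freedom. CPM use TMM library sizes, log2 CPM a prior count of 2, and levels per kb the union of GENCODE M21 exons. Alternatives were DESeq2 1.42.0, its size factors in edgeR, filterByExpr, no fold threshold, only the groups compared, the digits of the animal numbers (3 or 4) as a covariate, 4-digit animals alone, the length slope as a covariate, leaving out the 3 libraries with the steepest slopes, and leaving out each library.

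The 10 genes and all lists were chosen with earlier results of these data known. From the lists, up to 4 genes per role called with vehicle and up to 2 called in each other comparison were named, along with the 3 closest correlates of each of the 10 genes whose mean log2 CPM reached 0. *Mmp15*, *Mmp19*, and *Pzp* are named outside this rule, after their values were seen. Sequences are from RefSeq. Proteins, and promoters of *Mmp2*, *Lox*, *Loxl1*, and *Loxl2*, were not used here, 4 listed metalloproteinases were not analysed here, and 1 gene is not reported here. Comparisons that share a group are given side by side.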

Additional observations from a re-analysis of the deposited data

Results flagged for a closer look

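Of 30 groups of 4 to 10 libraries (10 genes in 3 groups), 8 held 1 library whose gap to the next was above Dixon's critical value for 95%. Chance gives about 1 in 20 if values spread normally. The rule was applied to CPM, some of them from few counts, so that rate may not hold here. In vehicle-treated control 4, *Timp1* was at 0.875 CPM (group median 0.187), *Mmp12* at 10.7 CPM (1.45), *Mmp13* at 1.06 CPM (0.166), and *Loxl2* at 6.86 CPM (4.43). In FGF21-treated LmnaADKO mouse 3, *Mmp2* was at 9.41 CPM (2.93), *Lox* at 1.45 CPM (0.361), and *Loxl2* at 15.0 CPM (7.05). In vehicle-treated LmnaADKO mouse 6, *Loxl1* was at 5.98 CPM (3.5). All 8 were the highest of their group. The genes are not independent of each other, so flags within 1 mouse are not separate events.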

How the results depend on the processing

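In the comparison of genotypes under vehicle, 6 of the 10 genes were called, and 5 to 6 when each of 13 libraries was left out in turn. Under FGF21, where 2 were called, DESeq2 called 4, DESeq2 size factors 1, animals with 4-digit numbers alone 1 (*Mmp12*, with *Timp3* and *Loxl2* lost), and the fit of only the groups compared, the number series as a covariate, and leaving out the 3 libraries with the steepest length slopes 0 each, with 0 to 2 when single libraries were left out. In FGF21-treated LmnaADKO livers against vehicle-treated controls, where 4 were called, leaving out these 3 libraries gave 2 (*Timp1* and *Mmp13* lost) and leaving out single libraries 4 to 5. DESeq2 gave 5 there, with *Mmp12* added. FGF21 against vehicle and the interaction gave 0 of the 10 under every alternative run. The 4-digit animals alone could not be fitted for the genotype comparison under vehicle, which has 1 such control. The depth gave *Timp1*, *Mmp13*, and *Lox* few counts, so their folds are the least precise.

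These log2 fold changes turned direction. With the number series as a covariate, *Mmp14* was at 0.01 between genotypes under vehicle, -0.04 under FGF21, 0.07 for FGF21 in controls, 0.04 in FGF21-treated LmnaADKO livers against vehicle-treated controls, and -0.05 in the interaction. In the same fit *Mmp13* was at 0.02 and *Loxl2* at 0.23 for FGF21 in controls, and *Lox* at -0.51 in the interaction. With 4-digit animals alone, *Mmp14* was at -0.04 and *Loxl1* at 0.09 between genotypes under FGF21, and *Timp1* at 0.03 for FGF21 in LmnaADKO livers. With the length slope as a covariate, *Loxl1* was at 0.03 between genotypes under FGF21. In that fit *Timp1* was at -0.01, *Mmp14* at 0.01, and *Loxl2* at 0.05 for FGF21 in controls, *Mmp14* at 0.02 in FGF21-treated LmnaADKO livers against vehicle-treated controls, and *Lox* at -0.02 in the interaction. Without the 3 libraries, *Loxl1* was at 0.03 between genotypes under FGF21, *Timp1* at -1.0 for FGF21 in controls, and *Timp1* at 0.23, *Mmp13* at 0.11, and *Lox* at -0.03 in the interaction. The causes were not tested.

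Leaving out single libraries also turned some directions. The interaction ranged from -1.49 to 0.4 for *Timp1*, -0.77 to 1.41 for *Mmp12*, -1.17 to 0.11 for *Mmp13*, and -0.49 to 0.77 for *Lox*. Between genotypes under FGF21, *Mmp2* ranged from -0.44 to 0.11, *Mmp14* from -0.01 to 0.12, and *Loxl1* from -0.31 to 0.21. For FGF21 in controls the ranges were -0.83 to 1.06 for *Timp1*, -0.0 to 0.25 for *Timp3*, -0.56 to 0.72 for *Mmp13*, -0.14 to 0.01 for *Mmp14*, -0.04 to 0.46 for *Loxl1*, and -0.12 to 0.08 for *Loxl2*. In FGF21-treated LmnaADKO livers against vehicle-treated controls, *Mmp2* ranged from -0.25 to 0.24, *Mmp14* from -0.09 to 0.06, and *Loxl1* from -0.11 to 0.44.

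Over all genes, 2033 were called between genotypes under vehicle and 3623 without the fold threshold. Under FGF21, 690 were called, against 348 with only the groups compared, 308 with 4-digit animals alone, 402 without the 3 libraries, and 339 to 1149 without single libraries. For FGF21 in controls, 13 were called, against 38 by DESeq2, 0 with the number series, and 3 to 26 without single libraries. For FGF21 in LmnaADKO livers, 0 were called, against 15 by DESeq2, 2 with 4-digit animals alone, and 0 to 61 without single libraries. In FGF21-treated LmnaADKO livers against vehicle-treated controls, 1168 were called and 2192 without the fold threshold. The interaction was called for 1, against 13 by DESeq2, 2 with DESeq2 size factors, 2 after filterByExpr, 0 with the number series, 3 with the length slope, 5 without the 3 libraries, and 0 to 5 without single libraries. Of the 64 other listed genes, 1 was called between genotypes under FGF21, against 4 by DESeq2, 2 with the length slope, and 0 with only the groups compared or with 4-digit animals alone.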
